A study of Mus musculus with 9 samples.

Results

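The cytosolic ribosomal protein genes encode the proteins of the 40S and 60S ribosomal subunits. They were followed in MyC-CaP cells given NRG1, a ligand of the receptor HER3. Genes were taken by symbol, as names beginning Rpl or Rps followed by the protein's number (with Rplp0 to Rplp2 and Rpsa, and without the Rps6 kinases). This gave 84 of the 15552 genes in the count table: 31 of the 40S subunit, 43 of the 60S subunit, 3 of the P stalk and 7 paralogs. The paralog Rps4l was not analysed here. MyC-CaP is a mouse prostate cancer cell line from a MYC-driven tumor. All cells were starved in medium without serum and calcium, then treated with recombinant NRG1 at 15 ng/mL, total RNA was extracted after 0, 12 or 24 h, and mRNA libraries were sequenced, with 3 biological replicates at each time. No library without NRG1 at 12 or 24 h was analysed here, so time in that medium and time with NRG1 cannot be told apart.

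Ribosomal proteins are made in nearly equal amounts and assembled on ribosomal RNA in the nucleolus. Their mRNAs are among the most abundant in a growing cell. In mammals these mRNAs begin with a terminal oligopyrimidine (TOP) tract, a C followed by further pyrimidines at the very start of the transcript, and through it the mTOR pathway and the binding protein LARP1 control how well they are translated. HER3 with its partner HER2 signals through PI3K and AKT to mTOR, and MYC activates many genes of ribosome production. Translation itself is not seen in a count of mRNA.

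The libraries held between 28467089 and 39239760 counts. Of the 84 genes, 81 had enough counts to be tested among 11373 genes. The label calls the cells epithelial-like. The keratin gene Krt8 stood between 17.3 and 26.2 CPM (counts per 1000000 counts, scaled by TMM), whereas Krt18 was at most 0.491 CPM and the epithelial genes Epcam and Cdh1 had at most 3 and 4 counts in any library. Markers of fibroblasts, endothelial cells and leukocytes (7 genes) did not exceed 1.02 CPM, the value of the macrophage gene Cd68, and the other 6 were at or under 0.433 CPM. Chi-square values per degree of freedom between replicates were 7.63 and 6.75 for the pairs holding replicate 1 at 0 h against 4.22 for the remaining pair. They were 10.2 and 10.3 for the pairs holding replicate 3 at 12 h against 4.33. These 2 libraries stood apart, and the counts of called members are given with and without them.

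Windows at the start of the transcript were read for 15 members, of which 6 had a tract within 10 bases and 9 had none. Shown are 5 that were picked for having one and, for contrast, 3 without, because the tract there is what the translational control of these mRNAs reads. Each sequence runs 30 bases before to 10 bases from the RefSeq start, on GRCm38, in the gene's own direction. Capitals mark the tract nearest the start, a C with at least 4 pyrimidines after it. Rps6, a 40S protein phosphorylated by S6 kinase, Rplp2 of the P stalk and Rps27 of the 40S subunit had the tract at the start itself. The paralog Rps27l had it 1 base further on and Rpl22l1 3 bases, and at a second RefSeq start of Rps27l no tract was found. Rpl7l1, Rpl37a and Rplp0 had none within 10 bases of the RefSeq start. Where transcription begins in these cells was not measured, so this does not show that their mRNAs lack a tract. For Rps6, Rplp2, Rpl22l1 and Rpl37a the GENCODE annotation begins the gene outside the window shown, at 86857412, 141447370, 28805436 and 72711290.
Rps6, chr4:86857358-86857397, minus strand: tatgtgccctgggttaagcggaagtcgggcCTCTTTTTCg
Rplp2, chr7:141447621-141447660, plus strand: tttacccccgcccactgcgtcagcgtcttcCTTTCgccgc
Rps27, chr3:90213639-90213678, minus strand: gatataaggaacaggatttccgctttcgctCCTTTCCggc
Rps27l, chr9:66946056-66946095, plus strand: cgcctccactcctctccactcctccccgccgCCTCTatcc
Rpl22l1, chr3:28805478-28805517, plus strand: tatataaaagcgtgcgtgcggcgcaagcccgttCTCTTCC
Rpl7l1, chr17:46782647-46782686, minus strand: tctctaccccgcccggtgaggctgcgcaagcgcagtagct
Rpl37a, chr1:72711230-72711269, plus strand: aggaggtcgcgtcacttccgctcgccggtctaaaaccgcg
Rplp0, chr5:115559437-115559476, plus strand: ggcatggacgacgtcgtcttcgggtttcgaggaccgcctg

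RefSeq promoters, from 250 bases before to 50 after the start, were matched for 64 of the 84 genes. Among the 20 not matched were Rpl3, Rpl7, Rpl8, Rpl17, Rpl21, Rpl23a, Rpl29, Rpl30, Rpl32, Rpl36, Rplp1, Rps14, Rps20, Rps27a and Rps29. The tract began exactly at the start in 13 of the 64, or 20.3%, against 3.01% of 27025 genes. It began within 10 bases on either side in 39, or 60.9%, against 34.4% of all genes. Of the motifs searched on both strands, CCGGAAG, the core bound by ETS factors such as GABPA, lay in 26 (40.6%, all genes 9.93%). CTTTCC lay in 34 (53.1%, all genes 29.3%), and in 10 of them it overlapped the tract. GCCATCTT, bound by YY1, lay in 9.38% against 3.19%. The TATA sequence TATAAA lay in 10.9% against 15.7%, and the E-box CACGTG, which MYC can bind, in 9.38% against 8.09%. These are shares of genes with the letters in any of their RefSeq windows, and binding was not measured.

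The ribosomal protein genes together took between 8.55% and 9.20% of all counts in every library. At 0 h the shares of replicates 1 to 3 were 9.20%, 8.55% and 8.69%. At 12 h they were 8.93%, 8.67% and 8.56%, and at 24 h 9.002%, 8.87% and 8.94%. The means were 8.81% ± 0.344 (SD, n = 3), 8.72% ± 0.191 and 8.94% ± 0.0676, and the 3 ranges overlapped. Counts of the 60S and P stalk genes together, divided by counts of the 40S genes, gave 1.46 ± 0.0030 at 0 h, 1.46 ± 0.0140 at 12 h and 1.45 ± 0.0027 at 24 h.

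**Figure D1:**
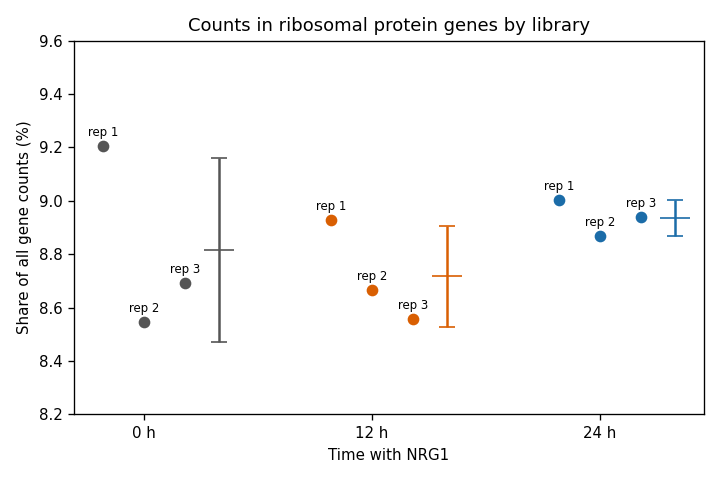
Share of all gene counts taken by the 84 ribosomal protein genes (y axis, percent, not starting at 0) in each library by time with NRG1 (x axis). Points are libraries, and the bars beside them the mean and SD of 3. Replicate 1 at 0 h, at 9.20%, is the highest of the 9, and the ranges of the 3 time points overlap.

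At 0 and 12 h, though less so at 24 h, the members moved together from library to library. Of the 77 members with a mean of at least 100 CPM, 75 had their highest value of the 3 libraries at 0 h in replicate 1, while 37.4% of 2205 other genes at that level did. At 12 h, 65 of the 77 were highest in replicate 1, and 34.1% of the other genes. At 24 h the highest value was spread over replicate 1 (30 members), replicate 2 (11) and replicate 3 (36). Of the other genes, 27.7, 34.6 and 37.8 percent were highest in these libraries. Every comparison with 0 h given here includes replicate 1 at 0 h unless said.

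Counted per kilobase of a representative transcript and per 1000000 counts (RPKM), the 77 well-measured members had a median level of 1305, with the 10th and 90th percentiles at 559 and 2325. By this length the P stalk, the flexible arm of the 60S subunit that recruits elongation factors, held the 3 highest levels. They were Rplp1 at 3608, Rplp2 at 3399 and Rplp0 at 3362 RPKM. The ranking depends on the transcript chosen, since counts were taken over the whole gene. For Rplp2 it had 421 bases, while all exons together cover 2072. For Rps20, at 274 RPKM, it had 3706 bases with 357 coding. Levels over all exonic bases were not computed. At the other end of these 77 were Rpl13a at 111, with 35.4% of its exonic bases under other genes, and the paralog Rpl7l1 at 94.8 RPKM. Rps10, Rpl36al and Rpl24 fell far under them, at 7.36, 4.69 and 0.939 RPKM. Rps10 and Rpl24 encode canonical proteins of the 40S and 60S subunits.

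Members differed in how far the annotation lets their reads be told from those of other genes. More than 20% of the exonic bases lay under another gene on the same strand in 4 members, Rpl13a, Rps10, Rpl36al and Rpl24, and the highest level among them was that of Rpl13a. For Rpl24, 47.0% of the exonic bases lay under another gene on the same strand (Gm28037), and 80.1% of the 100-base windows of its transcript occurred in the transcripts of other genes. For Rps10 the figures were 20.6% (RPS10-NUDT3) and 89.5%, and for Rpl36al 24.5% (Gm49383) and 59.0%. Members of high level shared windows too, 98.4% in Rps27 at 2218 RPKM and 88.9% in Rps12 at 2995 RPKM. How reads matching several genes were counted was not stated, and its part in these levels was not tested. Over all 84 members the median share of such windows was 43.2%. It was over 50% in 37 members and 0 in 9.

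Members below the filter were paralogs known from other tissues. Rpl3l, the striated muscle form of Rpl3, had 0 to 5 counts in a library. Rpl10l and Rpl39l, forms used in male germ cells, had 1 count each over all 9 libraries. A library at 0 allows up to 3 counts, for counting error only.

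**Figure D2:**
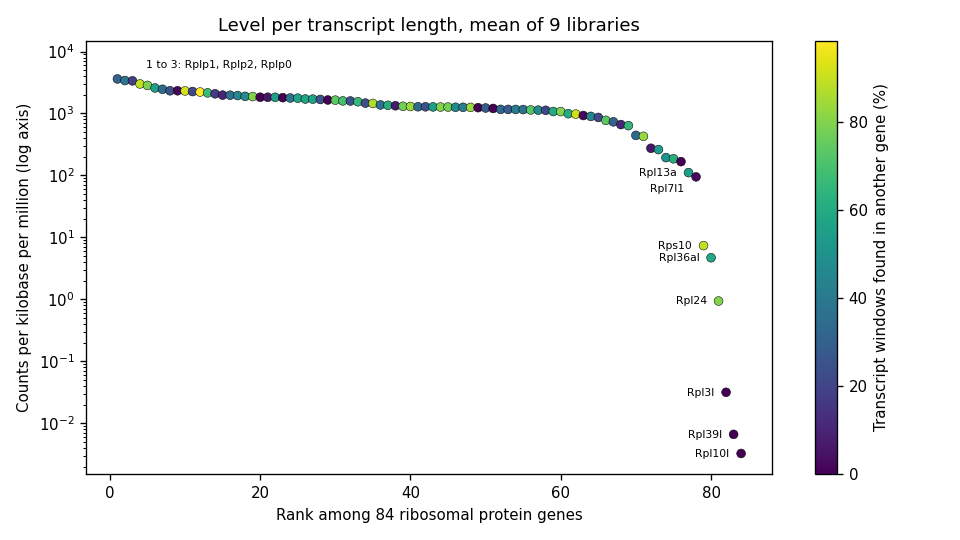
Level of each of the 84 members in RPKM, mean of 9 libraries (y axis, log scale), by rank (x axis). Color gives the percent of 100-base transcript windows found in another gene. The curve stays above 94.8 RPKM down to rank 78 and then drops to Rps10, Rpl36al and Rpl24 and to the 3 untested paralogs.

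At 12 h against 0 h, ribosomal protein mRNAs were nearly level relative to the other genes counted. By edgeR's quasi-likelihood test at an adjusted p of at most 0.05, 2 of 81 members (2.47%) were called, while 25.5 percent of all tested genes were. The paralog Rpl7l1 was higher and Rps10 lower, where 13.6 and 11.9 percent of all genes were. None reached a fold of 1.5 as well, as 2.29 percent of all genes did. At an unadjusted p of 0.05, 5 members passed, while 36.9 percent of all tested genes did. The median log2 fold change was -0.0072 over the members and -0.0028 over all tested genes, and 37 of 81 members lay above 0, as did 49.1% of all genes. Of all 2282 genes with at least 100 CPM, members included, 36.6 percent were called. The 3 libraries of a group lay apart from those of the other in 2 members, both higher, and in 38.4 percent of all genes.

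The intervals bound how far the members could have moved relative to the other genes counted. Counts were scaled by TMM, and the amount of mRNA per cell was not analysed here. The 95% interval of the log2 fold change lay inside ±0.263, a fold of 1.2 chosen after the values were seen, for 78 of 81 members. Those outside were Rpl24, Rpl36al and Rps10. Among the 77 members of at least 100 CPM, log2 fold changes ran from -0.12 to 0.10, and their median absolute value was 0.027, against 0.087 in the 2205 other genes of that level. The median standard error was 0.039 in the members and 0.040 in those other genes.

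Rpl7l1, a relative of Rpl7 that acts in the nucleolus, stood at 119, 124 and 123 CPM at 0 h, at 134, 132 and 128 CPM at 12 h, and at 120, 120 and 119 CPM at 24 h. All 3 libraries at 12 h were above all the others. Its log2 fold change at 12 h was 0.10 ± 0.036 (SE, adjusted p = 0.0422), and from 12 to 24 h it fell by 0.14 ± 0.036 (adjusted p = 0.0374). The call at 12 h was lost without replicate 1 at 0 h (0.085, adjusted p = 0.132), without replicate 3 at 0 h, with replicate 1 or 2 missing at 12 h, and with replicate 1 or 3 missing at 24 h (0.091 to 0.12, adjusted p = 0.0620 to 0.133). The fall to 24 h was lost without replicate 3 at 0 h, replicate 1 or 2 at 12 h or any replicate at 24 h (-0.14 to -0.12, adjusted p = 0.0512 to 0.151).

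Rps10, a protein of the 40S head, had 92, 184 and 152 counts at 0 h, 121, 86 and 89 at 12 h, and 115, 133 and 145 at 24 h. In CPM this was 3.27, 4.84 and 4.41 at 0 h and 3.38, 2.77 and 2.90 at 12 h, so the groups overlapped. The log2 fold change at 12 h was -0.48 ± 0.15 (adjusted p = 0.0310). Leaving out replicate 2 or replicate 3 of either time point ended the call (-0.44 to -0.35, adjusted p = 0.0669 to 0.152). Its counts are few and share sequence with other genes, as given above.

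Rpl37a, a 60S protein, came nearest to the threshold among the abundant members. It stood at 694, 626 and 631 CPM at 0 h and at 633, 577 and 585 CPM at 12 h, and the groups overlapped. Its log2 fold change was -0.12 ± 0.045 (adjusted p = 0.0591), and it was called with total-count or upper-quartile scaling, with no filter, with the replicate number as a block, with the length trend removed, and without replicate 1 at 12 h. In these settings other than the length trend Rpl7l1 was not called at 12 h (adjusted p = 0.0533 to 0.133), so every member called there was lower.

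**Figure D3:**
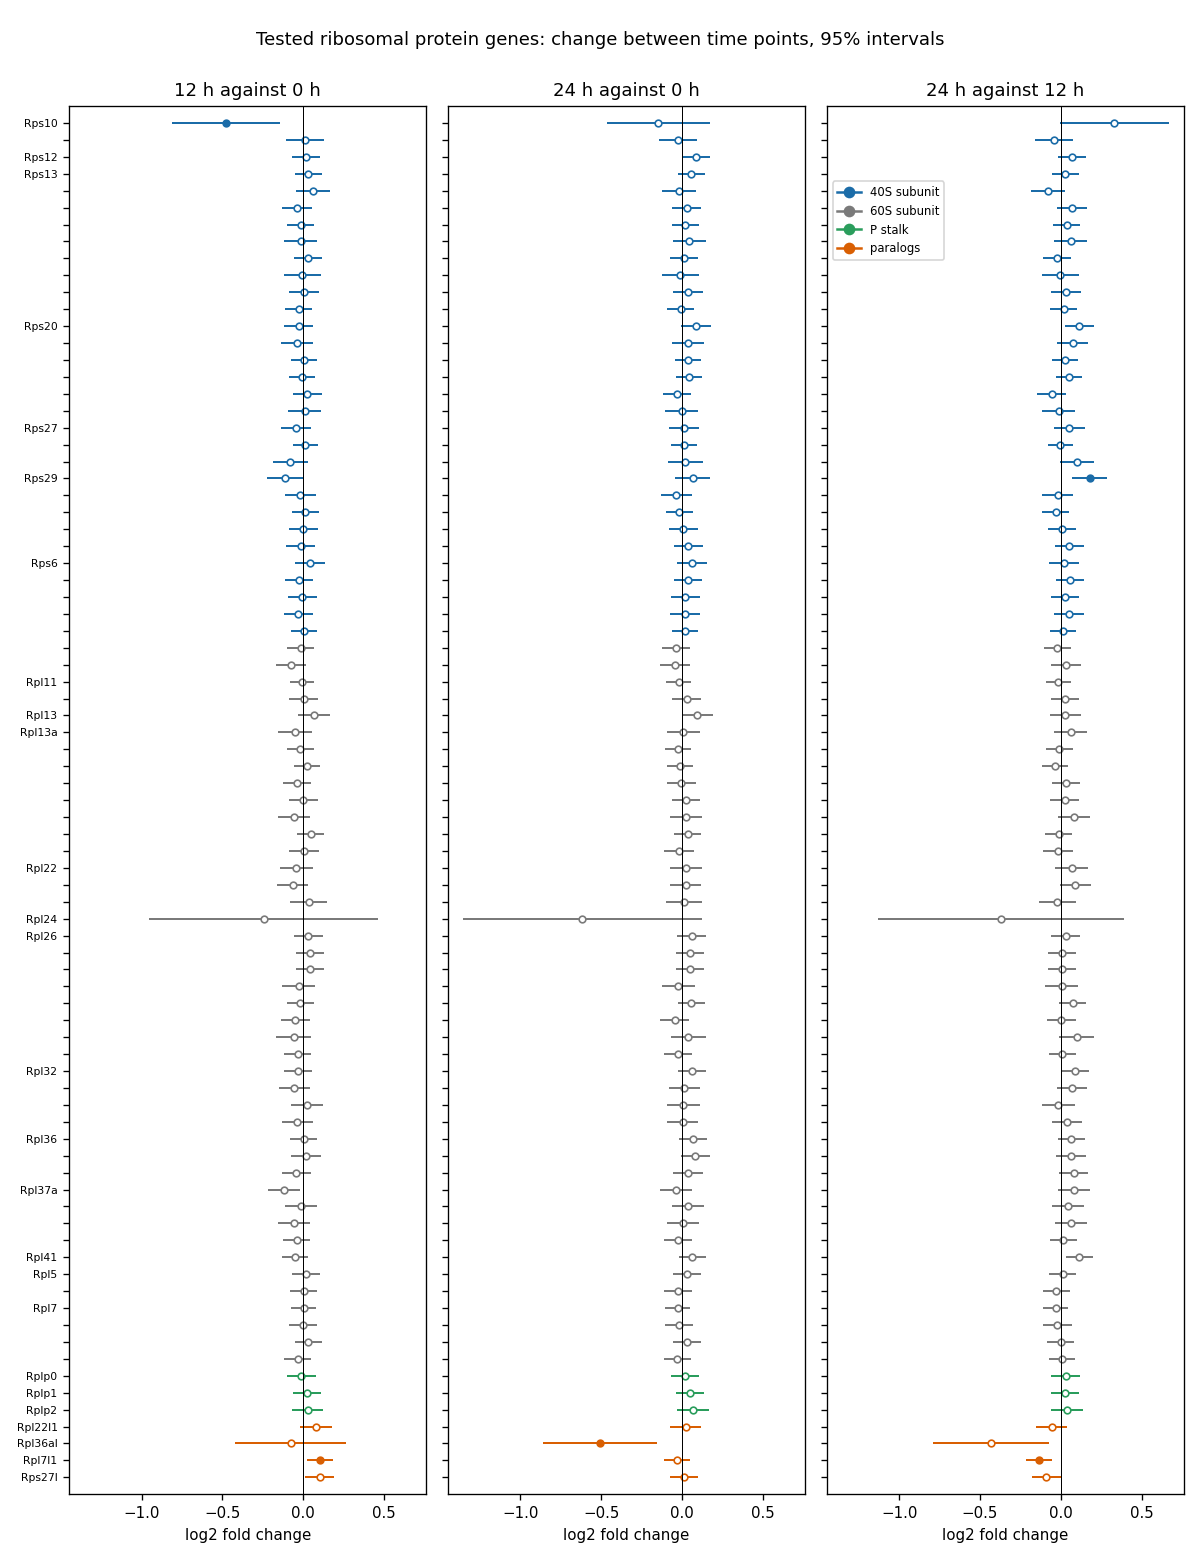
Log2 fold change (x axis) of each of the 81 tested members (y axis, named where the text describes them) in the 3 comparisons, with 95% intervals from edgeR. Filled points passed an adjusted p of 0.05, 2, 1 and 2 in the 3 panels, and most intervals lie close to 0. The wide intervals belong to Rps10, Rpl24 and Rpl36al.

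At 24 h against 0 h, which shares the 0 h libraries with the comparison at 12 h, 1 of 81 members (1.23%) was called, against 17.4 percent of all tested genes, and none by a fold of 1.5 (all genes 2.27 percent). Of all genes, 9.67 percent were higher and 7.76 percent lower, and of those with at least 100 CPM, 22.3 percent were called. The paralog Rpl36al was lower. It stood at 2.48, 2.66 and 3.22 CPM at 0 h, at 2.82, 2.80 and 2.32 CPM at 12 h, and at 2.06, 1.88 and 1.96 CPM at 24 h, the 24 h libraries lying under all others. Its log2 fold change was -0.51 ± 0.165 (adjusted p = 0.0430), from 63 to 111 counts in a library. The call was lost without replicate 2 or 3 at 0 h, replicate 2 at 12 h or any replicate at 24 h (-0.54 to -0.38, adjusted p = 0.0537 to 0.178). The median over the members was 0.019, against -0.0065 over all genes, and 53 of 81 lay above 0, as did 47.9% of all genes. Intervals lay inside a fold of 1.2 for 78 members. The groups did not overlap in 2 members, both lower, and in 35.5 percent of all genes.

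This count rested on replicate 1 at 0 h. Without that library, 10 members were called at 24 h, 9 higher and 1 lower, or close to the 13.9% of all genes called in the same fit, and the median was 0.060. The higher members were Rpl13, Rpl26, Rpl32 and Rpl36 of the 60S subunit, Rplp1 and Rplp2 of the P stalk, and Rps12, Rps13 and Rps20 of the 40S subunit. Without replicate 3 at 12 h as well, 18 were called at 24 h, 17 of them higher, against 19.1% of all genes. At 12 h, 8 were called, 6 of them higher, against 23.2%. The changes stayed small: leaving out replicate 1 at 0 h, Rplp2 was higher at 24 h by 0.12 (adjusted p = 0.0366) and Rplp1 by 0.096 (adjusted p = 0.0348) on the log2 scale.

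Rpl13, a 60S protein, had the largest value of the abundant members at 24 h with all libraries. It stood at 2271, 1999 and 2117 CPM at 0 h and at 2269, 2246 and 2312 CPM at 24 h. The groups overlapped through replicate 1 at 0 h, and the log2 fold change was 0.096 ± 0.043 (adjusted p = 0.145). Rps20 and Rps12 of the 40S subunit followed at 0.087 each.

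From 12 to 24 h, 2 of 81 members (2.47%) were called, against 5.03 percent of all tested genes, and 0.29 percent of all genes with a fold of 1.5. Of all genes, 1.97 percent were higher and 3.06 percent lower, and of those with at least 100 CPM 10.2 percent were called. Rpl7l1 was lower, as given above, and Rps29 higher. Rps29, a small zinc-binding 40S protein, stood at 713, 628 and 647 CPM at 0 h, at 582, 598 and 659 CPM at 12 h, and at 698, 680 and 702 CPM at 24 h. All 3 libraries at 24 h were above all 3 at 12 h. The log2 fold change was 0.18 ± 0.049 (adjusted p = 0.0465). The call was lost without replicate 3 at 0 h, replicate 1 or 2 at 12 h or any replicate at 24 h (0.14 to 0.19, adjusted p = 0.0616 to 0.202). The groups did not overlap in 20 members, 16 higher and 4 lower, as in 25 percent of all genes, and 55 of 81 members lay above 0, as did 50.9 percent of all genes. The median over the members was 0.025. Rpl41, which encodes the shortest ribosomal protein, was nearest to a call among the others, at 0.12 (adjusted p = 0.0790). An omnibus test over the 3 time points called 2 members, Rpl7l1 and Rps29, against 27.4 percent of all genes and 39.5 percent of those with at least 100 CPM.

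By place in the ribosome, the 31 genes of the 40S subunit gave 1, 0 and 1 calls in the 3 comparisons (12 and 24 h against 0 h, then 24 against 12 h), and the 43 genes of the 60S subunit gave none in edgeR's test, against 25.5, 17.4 and 5.03 percent of all tested genes. By an unadjusted p of 0.05, the 40S genes gave 2, 2 and 3 and the 60S genes 1, 1 and 2, against 36.9, 30.2 and 20.1 percent of all tested genes. Without the 2 libraries that stood apart, the 40S genes gave 3, 7 and 3 calls and the 60S genes 5, 8 and 2, against 23.2, 19.1 and 10.1 percent of all genes in that fit. Without those 2 libraries Rplp1 and Rplp2 were called higher at 24 h, and with all libraries no gene of the P stalk was called. Rplp0, its scaffold and a common reference gene for PCR, stood at 4857, 4369 and 4443 CPM at 0 h, at 4634, 4488 and 4448 CPM at 12 h, and at 4644, 4568 and 4641 CPM at 24 h. Its log2 fold changes were -0.010 ± 0.039 and 0.019 ± 0.039. With all libraries, none of the 8 genes lining the exit tunnel and its rim, where the new protein leaves, was called in edgeR's test. Nor was any at an unadjusted p of 0.05. Without the 2 libraries that stood apart, 3, 1 and 0 of the 8 were called, all higher, against the same 23.2, 19.1 and 10.1 percent.

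Rps6 stood at 1126, 1046 and 1049 CPM at 0 h, at 1157, 1100 and 1059 CPM at 12 h, and at 1152, 1107 and 1106 CPM at 24 h, and the groups overlapped. Its log2 fold changes were 0.042 ± 0.041 (adjusted p = 0.486) and 0.063 ± 0.040 (adjusted p = 0.319). Without the 2 libraries that stood apart, Rps6 was called higher at both 12 and 24 h against 0 h. Rpl5 and Rpl11 form a particle with 5S ribosomal RNA that restrains MDM2 when ribosome assembly fails. Rpl5 lay between 1908 and 2075 CPM in the 9 libraries and Rpl11 between 881 and 924 CPM. The largest of their log2 differences among time points was 0.029, and the smallest adjusted p was 0.656. With all libraries, Rps10 and Rps29 were the only called genes of 13 mutated in Diamond-Blackfan anaemia, an inherited failure of red cell production. Rps10 was lower at 12 h and Rps29 higher from 12 to 24 h, where 25.5 and 5.03 percent of all tested genes were called. Without the 2 libraries that stood apart, the 13 genes gave 3, 3 and 2 calls in the 3 comparisons. Of all genes in that fit, 23.2, 19.1 and 10.1 percent were called. At 12 h 1 of the 3 was higher, and in the other comparisons all were.

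Of the 4 tested paralogs, Rpl7l1, Rps27l and Rpl22l1 had positive log2 fold changes at 12 h, and Rpl36al had -0.077 ± 0.159. Rps27l, a p53 target, differs from Rps27 over much of its coding sequence, and to show how far the reads of the pair differ the first 60 bases of both are shown. Capitals mark the bases at which they differ, 18 of these 60, and the full coding sequences of 255 bases were 76.1% identical. Rps27 lies at chr3:90212522-90213651 on the minus strand and Rps27l at chr9:66946086-66949516 on the plus strand of GRCm38.
Rps27: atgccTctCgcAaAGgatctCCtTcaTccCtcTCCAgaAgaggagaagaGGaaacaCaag
Rps27l: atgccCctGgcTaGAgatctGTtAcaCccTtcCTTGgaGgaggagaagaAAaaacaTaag

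None of the 100-base windows of Rps27l occurred in another gene, whereas 98.4% of those of Rps27 did, Rps27rt among their sources. Rps27l stood at 79.2, 80.3 and 83.8 CPM at 0 h, at 87.2, 85.4 and 88.5 CPM at 12 h, and at 83.4, 79.6 and 82.3 CPM at 24 h. Its 12 h libraries lay above the others, with a log2 fold change of 0.10 ± 0.039 (adjusted p = 0.0675). Rps27 had -0.042 ± 0.041. Rpl22l1, which can take the place of Rpl22, stood at 105, 102 and 106 CPM at 0 h and at 114, 105 and 112 CPM at 12 h, a log2 fold change of 0.080 ± 0.043 (adjusted p = 0.192), while Rpl22 had -0.042 ± 0.045.

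The mean log2 ratio of paralog to partner was higher at 12 h than at 0 h in 3 of the 4 pairs and lower in that of Rpl36al to Rpl36a. For Rps27l to Rps27 it was -3.25 ± 0.108 (SD, n = 3) at 0 h, -3.10 ± 0.0522 at 12 h and -3.25 ± 0.0227 at 24 h. For Rpl22l1 to Rpl22 it was -2.45 ± 0.0888, -2.33 ± 0.0361 and -2.46 ± 0.0737, and for Rpl7l1 to Rpl7 it was -3.48 ± 0.0787, -3.38 ± 0.0350 and -3.48 ± 0.0218. For Rpl36al to Rpl36a it was -7.75 ± 0.236, -7.84 ± 0.164 and -8.32 ± 0.0378. The 12 h libraries lay above all 3 at 0 h for Rpl22l1 and Rpl7l1, but only 2 of them did for Rps27l. Without the 2 libraries that stood apart, the means at 0 and 12 h were -3.19 and -3.11 for Rps27l, -2.40 and -2.35 for Rpl22l1, -3.43 and -3.36 for Rpl7l1, and -7.64 and -7.75 for Rpl36al. The ratios are given as a description, since an exact permutation test of 3 against 3 libraries cannot go below 0.1.

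**Figure D4:**
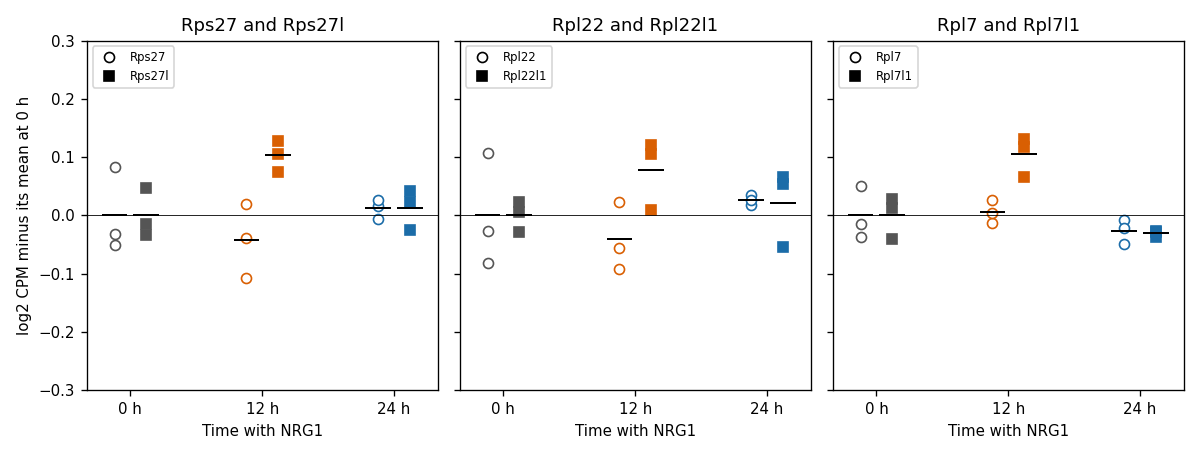
Log2 CPM minus its mean at 0 h (y axis) for 3 of the 4 canonical genes (open circles) and their paralogs (filled squares) in each library by time with NRG1 (x axis). Horizontal bars are means of 3. The paralog means lie above their partners at 12 h and near them at 24 h.

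Other genes of ribosome production were read from lists beside the members. Of 77 mitochondrial ribosomal protein genes, which serve the separate ribosome of that organelle, 6 were called at 12 h (4 higher, 2 lower), 3 at 24 h and 1 from 12 to 24 h, or 7.79%, 3.90% and 1.30%, against 25.5, 17.4 and 5.03 percent of all tested genes. Mrps33 was higher at 12 h by 0.24 on the log2 scale (adjusted p = 0.0027) and Mrpl40 by 0.24 (adjusted p = 0.0055). The list's median was 0.041 at 12 h and 0.0040 at 24 h. From 12 to 24 h it was -0.040, with 13 of the 77 above 0, as were 50.9 percent of all genes. Of 21 other TOP mRNAs, none was called at 12 h in edgeR's test with all libraries, and 3 had an unadjusted p of at most 0.05. At 24 h 2 were called, or 9.52% against 17.4 percent of all tested genes. Without the 2 libraries that stood apart, 3 were called at 12 h, all higher, against 23.2 percent of all genes. At 24 h 3 were then called, 2 higher and 1 lower, against 19.1 percent. Tpt1, encoding the translationally controlled tumor protein, was higher at 24 h by 0.25 (adjusted p = 0.0004), from 3573 ± 235 to 4236 ± 33.1 CPM, and Hnrnpa1, a splicing factor gene, was lower by 0.11 (adjusted p = 0.0355). The elongation factor gene Eef1a1 had -0.0056 and -0.019.

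Of 25 genes of ribosome assembly, 4 were called at 12 h (3 higher, 1 lower), 1 at 24 h and 1 from 12 to 24 h (both lower), or 16%, 4% and 4%, against the same 25.5, 17.4 and 5.03 percent. At an unadjusted p of 0.05 there were 8, 9 and 14, against 36.9, 30.2 and 20.1 percent of all tested genes. From 12 to 24 h the list's median was -0.099, 4 of the 25 lay above 0, and the groups did not overlap in 17 genes, 16 of them lower, as in 25 percent of all genes. Without the 2 libraries that stood apart, 7, 4 and 5 were called, those at 24 h all lower. At 12 h Rrp12, for export of the subunits, was lower by 0.23 (adjusted p = 0.0039), and Rrp9, of a small nucleolar particle, was higher by 0.19 (adjusted p = 0.0051). Among 9 chaperones and import factors of ribosomal proteins, Ltv1, for 40S maturation, was higher at 12 h by 0.16 (adjusted p = 0.0461). With all libraries, no gene of RNA polymerase I and its factors (11 tested) was called by edgeR, with 2, 1 and 0 at an unadjusted p of 0.05. Without the 2 libraries that stood apart, 1, 1 and 0 of the 11 were called, each lower. The chaperone list then gave 0, 0 and 1. Of all genes in that fit, 23.2, 19.1 and 10.1 percent were called.

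Of 14 regulators of ribosomal protein mRNA translation, 7 were called at 12 h (3 higher, 4 lower), or 50% against 25.5 percent of all tested genes, and 3 at 24 h, or 21.4% against 17.4 percent. From 12 to 24 h 0 were called in edgeR's test, where 4 had an unadjusted p of 0.05 or less, against 20.1 percent of all genes. Without the 2 libraries that stood apart, 6, 3 and 3 were called in the 3 comparisons, against 23.2, 19.1 and 10.1 percent of all genes. Eif4ebp1, the repressor of cap-dependent translation that mTOR switches off, was higher at 12 h by 0.33 (adjusted p = 1.35e-05), from 237 ± 9.33 to 297 ± 10.9 CPM. Mtor itself was lower by 0.24 (adjusted p = 0.0038). Eif4e and Rheb were also called higher at 12 h, by 0.22 and 0.16. Rps6kb2, Eif4ebp2 and Tsc2 were called lower, by 0.23, 0.23 and 0.20. At 24 h Eif4ebp1 was higher by 0.32 and Eif4ebp2, its relative, lower by 0.18 (adjusted p = 0.0009). Larp1 had 0.029 (adjusted p = 0.598) and 0.025, and Myc had -0.16 ± 0.070 (adjusted p = 0.113) and 0.080 ± 0.069. Reads were aligned to the mouse genome, so these values are for the mouse gene Myc, and total MYC in the cells was not measured.

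**Figure D5:**
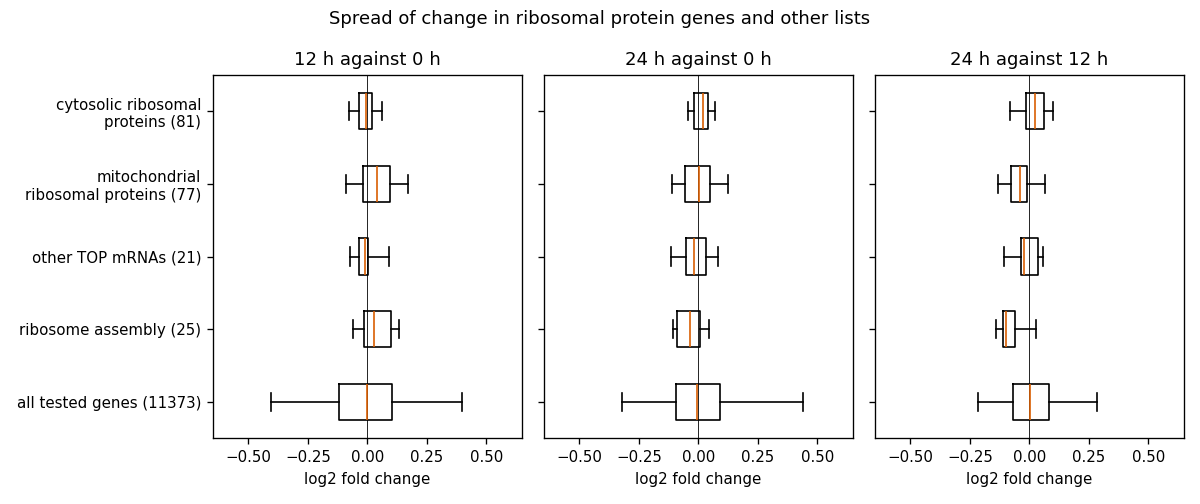
Log2 fold changes (x axis) in the 3 comparisons for the ribosomal protein genes, 3 other lists and all tested genes (number tested in brackets). Boxes span the quartiles with the median in orange, and whiskers reach the 5th and 95th percentiles. In each panel the ribosomal protein genes lie in a narrower range than all 11373 tested genes.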

How the data were processed

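The authors trimmed reads with Cutadapt, aligned them with STAR to GRCm38 with a GENCODE annotation, and counted them per gene with featureCounts. Strand and multi-mapping settings were not given in the sources used here. The deposited values are raw counts per gene in 1 table, with no normalization. No column was left unused. Here, counts were filtered with filterByExpr, scaled by TMM and fitted over all 9 libraries in edgeR 4.0.16 (R 4.3.3, glmQLFit and glmQLFTest), with time as the only term and Benjamini-Hochberg adjustment over 11373 genes. A call is an adjusted p of at most 0.05, and a stricter rule adds a fold of 1.5. CPM and RPKM were computed from the counts, with the APPRIS principal transcript of a GENCODE annotation of GRCm38 as the length. That annotation is an earlier release than the one the authors counted with: all 84 members matched by identifier, and 15416 of 15552 genes had the same coordinates. Alternatives included DESeq2 1.42.0, limma-voom 3.58.1, other scalings, no filter, a replicate block, a length trend and leaving out libraries. Scripts were tested on simulated data. The members, the gene lists and the tests were chosen with earlier results of these data known. Genes were named when called with the 5 largest rises or falls, or as paralogs, P stalk genes, Rps6, Rpl5, Rpl11 or extremes of level. From other lists up to 2 called genes were named for each comparison with 0 h, except that all 7 regulators of translation called at 12 h were named. Rpl37a, Rpl13, Rpl41, Rps12, Rps20, Larp1, Myc and Eef1a1, and the marker genes, were added as examples. Labels call the replicates biological, and the paper's methods describe cells plated in triplicate wells. Neither says whether the cultures were independent, so p-values measure the spread between these libraries, possibly only between wells. Values of some single genes are not reported here.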

Additional observations from a re-analysis of the deposited data

How the results depend on the processing

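With all libraries the member counts were 2 at 12 h, 1 at 24 h and 2 from 12 to 24 h. At 24 h the count was 0 under DESeq2, limma-voom, a fit of only the 2 time points and the replicate block. From 12 to 24 h it was 1 with upper-quartile scaling, and at 12 h it was 1 when only the 2 time points were fitted. Leaving out each library in turn gave 0 to 2 members at 12 h, 0 to 10 at 24 h and 0 to 4 from 12 to 24 h. With replicate 1 at 0 h and replicate 3 at 12 h both left out, chosen after seeing the data, the counts were 8, 18 and 6. Without Rpl24, Rps10 and Rpl36al among the members, also chosen after seeing the data, they were 1, 0 and 2. Without mitochondrially encoded genes in the denominator the share at 24 h was 9.05%. Medians over the members stayed between -0.029 and 0.033, -0.0012 and 0.060, and 0.012 and 0.042 with single libraries left out. For all genes from 12 to 24 h, 572 were called, 950 with no filter, 1164 without both libraries, and 214 to 879 with single libraries left out. No result changed sign among called values. The calls of Rpl7l1 at 12 h, Rpl36al at 24 h and Rps29 from 12 to 24 h were each lost in several settings, and the cause was not tested. The replicate block gave 2, 0 and 2 members and 3 in the omnibus test, with Rpl37a and Rps10, both lower, at 12 h and Rpl7l1 lost there (adjusted p = 0.0533). No filter and the length trend each gave 3 at 12 h, and DESeq2 3 from 12 to 24 h. Same-numbered libraries correlated between -0.074 and 0.13, with 1 of 9 pairs above 0.1, so the numbers were not taken as pairs. Rpl24, with 13 to 32 counts in a library, is the member whose depth limits the comparison most.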

Other observations

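Among the 77 members of at least 100 CPM, the log2 fold change varied with the length of the coding sequence. Over these genes, which share the same libraries and are not independent replicates, Pearson's r was 0.30 at 12 h and -0.38 at 24 h against 0 h, and -0.52 from 12 to 24 h. Without replicate 1 at 0 h and replicate 3 at 12 h it was 0.39, -0.39 and -0.55. The 9 members with a coding sequence under 300 bases had medians of -0.050, 0.035 and 0.079, against 0.0020, 0.019 and 0.020 in the other 68. A trend with total exonic length, not coding length, was fitted on other genes. Removing it left 3, 1 and 2 calls among the members, with Rpl37a lower at 12 h in addition to Rpl7l1 and Rps10. The correlation with coding length was not computed again after that removal.

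Fau, which encodes a 40S protein fused to a ubiquitin-like domain and lies outside the symbol rule, was not called. It had log2 fold changes of 0.057 ± 0.047 and 0.085 ± 0.047 (SE, adjusted p = 0.411 and 0.238 in edgeR) at 12 and 24 h against 0 h.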
